A study of Mus musculus with 27 samples.

Results

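The levels of 10 marker genes of the liver sinusoidal endothelium were followed through the 8 groups of mice. The genes were taken from the 55414 genes of the count table by symbol, and all 10 passed the filter on low counts that 14114 genes passed. Stab1, Clec4g, Oit3, Dnase1l3, Fcgr2b, Kdr and Gata4 stood for sinusoidal identity, and Vwf, Plvap and Cd34 for capillarization. The list was chosen by symbol and not by any measured value, although earlier results of these data were known when it was drawn up.

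All mice were female Balb/c, 8 weeks old, and RNA with a poly-A tail was read from whole liver. Without CCl4 there were 4 control mice, injected with olive oil intraperitoneally and with PBS in the tail vein, 3 mice given oil and 4MU, 3 given oil and siLuc-LNP, and 3 given oil and siHAS2-LNP. With CCl4 injected intraperitoneally over 2 weeks there were 2 mice given CCl4 alone and 4 mice for each of the treatments beside it, named CCl4 + siHAS2-LNP, CCl4 + 4MU and CCl4 + siLuc-LNP. 4MU (4-methylumbelliferone) blocks the synthesis of hyaluronic acid and was gavaged daily at 600 mg/kg. siHAS2-LNP is a lipid nanoparticle with siRNA against Has2, the main hyaluronic acid synthase, and siLuc-LNP carries siRNA against luciferase as a non-targeting control, both at 1 mg/kg at the start and 0.5 mg/kg afterwards. The label of the CCl4 group names no gavage and no tail vein injection, so that CCl4 and control mice may differ in the injection as well as in CCl4. Has2 itself had 0 to 2 counts in each of the 27 livers, too few to show a knockdown in this RNA.

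The sinusoidal endothelial cell lines the capillaries of the liver, has open pores without a basement membrane, and clears waste from the blood through scavenger and Fc receptors. In chronic injury it is known to lose its pores, to gain a basement membrane and to take on genes of ordinary capillaries, a change called capillarization. The transcription factor GATA4 is known to keep the sinusoidal programme, and VEGF, read by the receptor KDR, is known to maintain the pores.

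The libraries held 7044386 to 29425937 counts, with the shallowest in mouse 4 of CCl4 + siHAS2-LNP, and a floor of 3 counts corresponded to 0.104 to 0.401 normalised CPM (counts scaled to a common library size). The markers had 9 to 1313 counts per liver, the lowest for Cd34 and the highest for Plvap. All 18 pan-endothelial genes (Pecam1, Cdh5, Tie1 and others that all blood endothelium makes) were detected and together gave 68.0 to 183 CPM, against 72710 to 195500 CPM for 6 hepatocyte genes. The pan-endothelial score, their mean log2 CPM relative to the mean liver, set 4 livers apart. It was -0.96 in siHAS2-LNP mouse 2, -0.85 in CCl4 + siHAS2-LNP mouse 4, -0.83 in control mouse 2 and -0.68 in siLuc-LNP mouse 2, and -0.37 or higher in the other 23. In whole liver, fewer endothelial cells and less RNA of a gene per endothelial cell cannot be told apart.

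Per kilobase of annotated exon, Plvap, the diaphragm protein of endothelial pores, had the highest level in control liver (8.90 ± 1.86 CPM per kb, SD, n = 4). Clec4g, the sinusoidal C-type lectin, followed at 5.38 ± 2.12 CPM per kb, and its highest control liver (6.65) lay just under the lowest for Plvap (6.68). Fcgr2b at 4.07 ± 0.87 and Dnase1l3 at 3.02 ± 1.49 CPM per kb came next, and the ranges of Clec4g, Fcgr2b and Dnase1l3 overlapped. Oit3 (1.89), Gata4 (1.76), Stab1 (1.66) and Kdr (1.33 CPM per kb) did not differ beyond their spread. Vwf was lower at 0.288 ± 0.08 CPM per kb, and Cd34 the lowest at 0.0938 ± 0.0373 CPM per kb, neither range reaching its neighbour. The annotated exons of Cd34 cover 11.96 kb in 4 blocks, and its level per kilobase rests on that length.

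Promoter windows from RefSeq (GRCm38.p6, 250 bases before to 50 after the start) were at hand for 5 of the 10 markers, namely Stab1, Clec4g, Fcgr2b, Kdr and Cd34. They were searched on both strands for AGATAA, a form of the GATA factor motif, and for GGAAGT, a form of the ETS factor motif, since both factor families are known in endothelium. AGATAA was in none of the 5 windows and in 11.2% of all 32851 windows of the same length. GGAAGT was in the windows of Fcgr2b and Kdr and in 23.8% of all windows, and the surrounding bases are shown on the strand of the gene, with the match, which lies on the other strand, in capitals.
Fcgr2b, chr1:170976086-170976113, minus strand: cgtttcttttcACTTCCccatttggact
Kdr, chr5:75978656-75978683, minus strand: ggctacattttACTTCCaccagaaaccg
The match began 31 bases before the start in Fcgr2b and 217 bases before it in Kdr.

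The effect of CCl4 was measured in 4 arms, each a group with CCl4 against the group with the same treatment and no CCl4, and averaged over them with equal weight. In this mean effect 5 of the 10 markers were higher with CCl4 and 0 were lower at an adjusted p under 0.05 (edgeR's quasi-likelihood test, Benjamini-Hochberg over 14114 genes), where 51.9% of all genes passed. Cd34 rose 2.82-fold, Oit3 1.77-fold, Stab1 1.74-fold, Kdr 1.51-fold and Fcgr2b 1.33-fold, while Clec4g, Dnase1l3, Plvap, Gata4 and Vwf did not pass. The median log2 fold change was 0.41 over the 7 markers of sinusoidal identity and 0.22 over the 3 of capillarization, beside -0.02 over all genes tested. The median of the pan-endothelial genes, given further below, lay between those of the sinusoidal and the capillarization markers. DESeq2 and limma-voom called the same 5 markers. Among the separate arms, 1081 genes, 7.66% of those tested, were free of overlap in the same direction in all 4, and Stab1 alone of the 10 markers was among them. The share of all genes free of overlap within a single arm was not counted. Statements on overlap in single arms below therefore only describe the livers.

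**Figure D1:**
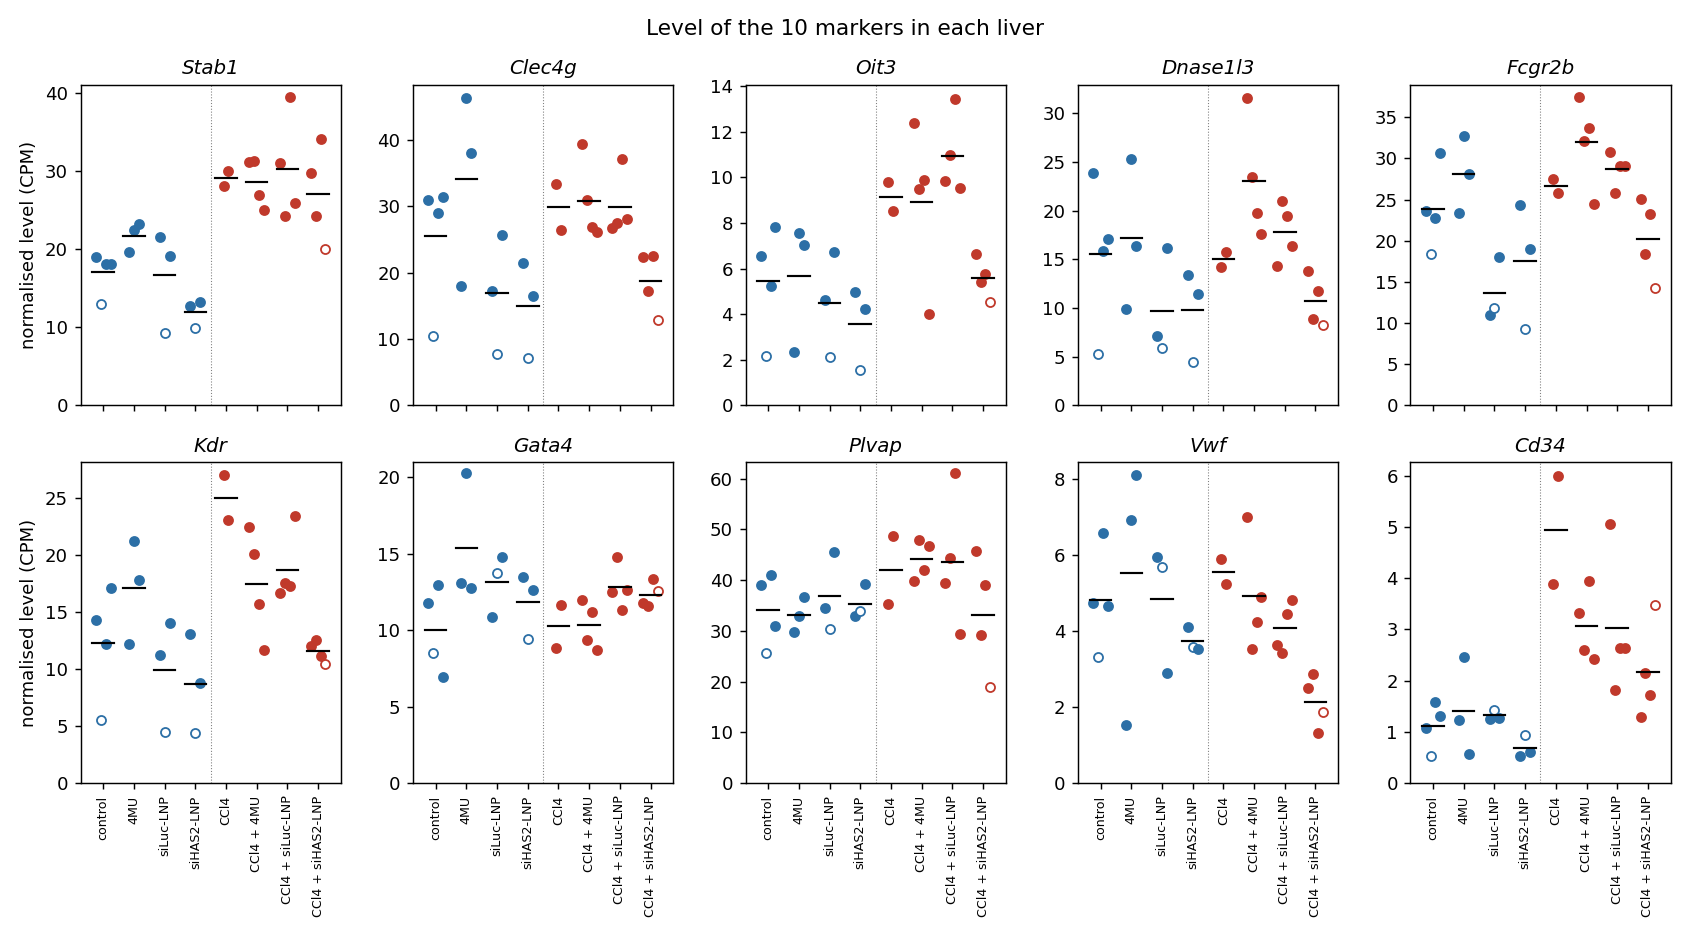
Level of each marker (vertical axis, TMM-normalised CPM, starting at 0) in each of the 27 livers by group, without CCl4 in blue on the left of the dotted line and with CCl4 in red on the right; bars are group means, and open circles are the 4 livers lowest in pan-endothelial RNA. Stab1 is higher with CCl4 in every arm, Cd34 is higher in most livers given CCl4, and the open circles are the lowest of their groups for Clec4g, Dnase1l3 and Kdr.

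Stab1 (ENSMUSG00000042286, chr14:30860970-30890598 of GRCm39, minus strand) codes for stabilin-1, a scavenger receptor of sinusoidal endothelium that some macrophages also make. Its level was 19.1, 13.05, 18.15 and 18.15 CPM in the 4 control livers and 28.1 and 30.1 CPM in the 2 CCl4 livers. With 4MU it was 19.7, 22.4 and 23.2 CPM without CCl4 and 31.2, 31.3, 26.9 and 25.02 CPM with it. The ranges did not overlap in either arm. With siLuc-LNP it was 21.6, 9.34 and 19.1 CPM without CCl4 and 31.1, 24.3, 39.6 and 26.0 CPM with it, and with siHAS2-LNP 12.8, 9.95 and 13.3 CPM against 29.8, 24.3, 34.2 and 20.03 CPM. In these arms too every liver given CCl4 was higher than every liver without, and over all arms 13 of 14 livers with CCl4 were above all 13 without it. The mean log2 fold change was 0.80 (SE 0.11, adjusted p = 2.57e-06), and it was 0.76 (adjusted p = 0.0168) in CCl4 against control, 0.85 (adjusted p = 0.00673) with siLuc-LNP, 1.18 (adjusted p = 0.00099) with siHAS2-LNP, and 0.39 (adjusted p = 0.203) with 4MU. Without CCl4 mouse 2 the value against control was 0.74 and no longer passed (adjusted p = 0.115). Without the 4 livers low in pan-endothelial RNA the mean effect was 0.70 (adjusted p = 2.12e-06). In an edgeR fit limited to the compared groups, the siLuc-LNP arm gave 0.85 and did not pass (adjusted p = 0.0904).

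Macrophage markers moved as well. Of 6 monocyte and macrophage genes 5 were higher with CCl4 and 0 lower (median log2 fold change 1.17), and their summed level was 104 to 512 CPM with CCl4 and 43.6 to 202 CPM without. Of 5 Kupffer cell genes 4 were lower and 0 higher (median -0.54), with sums of 89.2 to 381 CPM against 150 to 458 CPM. None of these 11 genes was at 0 in all livers, and their part in the Stab1 and Fcgr2b values was not tested.

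Oit3 (ENSMUSG00000009654, chr10:59258780-59277702, minus strand) codes for a secreted protein with a zona pellucida domain and is used as a marker of sinusoidal endothelium. It was 6.56, 2.18, 5.25 and 7.81 CPM in control livers and 9.78 and 8.52 CPM with CCl4, without overlap. With siLuc-LNP it was 4.63, 2.11 and 6.72 CPM without CCl4 and 9.84, 10.99, 13.5 and 9.53 CPM with it, also without overlap. In the 4MU and siHAS2-LNP arms the ranges overlapped, at 2.36 to 7.58 against 3.99 to 12.4 CPM and at 1.56 to 4.97 against 4.54 to 6.62 CPM. The mean log2 fold change was 0.83 (SE 0.22, adjusted p = 0.003), and 9 of 14 livers with CCl4 were above all those without. Of the single arms only that with siLuc-LNP passed (1.27, adjusted p = 0.0349), and it did not pass when siLuc-LNP mouse 1 (1.29, adjusted p = 0.0874), siLuc-LNP mouse 2 (0.95, adjusted p = 0.157) or CCl4 + siLuc-LNP mouse 3 (1.18, adjusted p = 0.06) was left out. Without the 4 livers low in pan-endothelial RNA the mean effect was 0.61 (adjusted p = 0.0122).

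Kdr (ENSMUSG00000062960, chr5:76093487-76139884, minus strand) codes for VEGF receptor 2. In control livers it was 14.3, 5.55, 12.2 and 17.1 CPM, and the 2 CCl4 livers, at 26.96 and 23.02 CPM, were above all of them. With siLuc-LNP it was 11.2, 4.44 and 14.02 CPM against 16.6, 17.5, 17.2 and 23.4 CPM with CCl4, again without overlap. The ranges overlapped with 4MU, at 12.1 to 21.2 against 11.6 to 22.5 CPM, and with siHAS2-LNP, at 4.34 to 13.1 against 10.4 to 12.5 CPM. The mean log2 fold change was 0.59 (SE 0.18, adjusted p = 0.00759), and it fell to 0.37 (adjusted p = 0.019) without the 4 livers low in pan-endothelial RNA. In CCl4 against control it was 1.02 (adjusted p = 0.0378). That call was lost without control mouse 2 (0.80, adjusted p = 0.0972), control mouse 3 (1.03, adjusted p = 0.0583), CCl4 mouse 1 (0.92, adjusted p = 0.152) or CCl4 mouse 2 (1.16, adjusted p = 0.104). With 4MU the value was 0.03 (adjusted p = 0.959), with siLuc-LNP 0.91 (adjusted p = 0.0611) and with siHAS2-LNP 0.41 (adjusted p = 0.501), and the siLuc-LNP arm passed without siLuc-LNP mouse 3 (1.25, adjusted p = 0.0291).

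Fcgr2b (ENSMUSG00000026656, chr1:170786186-170804177, minus strand) codes for the inhibitory Fc receptor through which sinusoidal endothelium takes up immune complexes, and B cells and macrophages make it too. Its group mean was lowest with siLuc-LNP alone, whose livers were at 10.98, 11.9 and 17.97 CPM. All 4 livers of CCl4 + siLuc-LNP were above these, at 30.8, 25.8, 29.1 and 29.1 CPM. In the other arms the ranges overlapped, at 18.4 to 30.7 against 25.9 to 27.5 CPM for CCl4 against control, 23.4 to 32.8 against 24.5 to 37.5 CPM with 4MU and 9.34 to 24.3 against 14.3 to 25.1 CPM with siHAS2-LNP. The mean log2 fold change was 0.41 (SE 0.13, adjusted p = 0.00844), and with all 14 CCl4 livers set against all 13 others it was 0.36 and did not pass (adjusted p = 0.0691). The siLuc-LNP arm gave 1.07 (adjusted p = 0.00276) and the others 0.16 to 0.22, none of which passed. Fcgr2b had the smallest p among the markers for a difference of the CCl4 effect among the arms (unadjusted p = 0.0414, edgeR), and it did not pass (adjusted p = 0.179). All 4 B cell genes were below 0 in the mean effect and 3 of them passed (median -0.69), with sums of 0.534 to 3.53 CPM with CCl4 and 1.98 to 8.35 CPM without.

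Clec4g (ENSMUSG00000074491, chr8:3757064-3770671, minus strand) and Dnase1l3 (ENSMUSG00000025279, chr14:14475200-14505240, plus strand), a secreted DNase of chromatin, varied more among livers than with CCl4. Clec4g ran from 7.22 to 46.4 CPM (median 21.5) in the 13 livers without CCl4, a 6.43-fold range, and from 12.95 to 39.4 CPM (median 26.8) in the 14 with CCl4. Dnase1l3 ran from 4.48 to 25.4 CPM (median 13.5) and from 8.28 to 31.6 CPM (median 16.1). The ranges overlapped almost whole for both. The mean log2 fold change was 0.30 (SE 0.19, adjusted p = 0.193) for Clec4g and 0.34 (SE 0.21, adjusted p = 0.17) for Dnase1l3, with 95% intervals of -0.09 to 0.70 and -0.08 to 0.77. Without the 4 livers low in pan-endothelial RNA these values were 0.10 and 0.14, and Dnase1l3 passed without siLuc-LNP mouse 3 (0.49, adjusted p = 0.0442). In the siLuc-LNP arm Clec4g was 17.3, 7.80 and 25.7 CPM without CCl4 and 26.8, 27.5, 37.2 and 28.1 CPM with it, without overlap, but did not pass.

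Gata4 (ENSMUSG00000021944, chr14:63436362-63509141, minus strand), the transcription factor, varied little among livers given CCl4, at 8.72 to 14.8 CPM, and was 6.91 to 20.3 CPM without CCl4. Its mean log2 fold change was -0.13 (SE 0.10, adjusted p = 0.304). In the 4MU arm it was lower with CCl4, at 11.96, 9.38, 11.2 and 8.72 CPM against 13.1, 20.3 and 12.8 CPM, with no overlap. That difference was -0.58 (SE 0.20, adjusted p = 0.036). It did not pass without 4MU mouse 2 (-0.32, adjusted p = 0.31), CCl4 + 4MU mouse 2 (-0.55, adjusted p = 0.0735) or CCl4 + 4MU mouse 4 (-0.50, adjusted p = 0.105). In the other arms Gata4 differed by -0.03 to 0.05 and the sign depended on the livers kept. Stellate cells and hepatocyte precursors are also known to use Gata4, and in whole liver its cell source was not measured.

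Among the capillarization genes Cd34 (ENSMUSG00000016494, chr1:194621029-194647172, plus strand), a sialomucin of continuous capillaries that fibroblasts and blood progenitors also make, changed most. It was 1.07, 0.531, 1.58 and 1.31 CPM in control livers and 3.89 and 5.99 CPM with CCl4. With siLuc-LNP it was 1.26, 1.42 and 1.27 CPM against 5.05, 1.81, 2.64 and 2.63 CPM, and with siHAS2-LNP 0.525, 0.943 and 0.598 CPM against 1.29, 2.15, 1.73 and 3.47 CPM. In these 3 arms every liver with CCl4 was higher than every liver without, and with 4MU the ranges overlapped by a single liver, 4MU mouse 2 at 2.46 CPM, against 2.42 to 3.95 CPM. The mean log2 fold change was 1.49 (SE 0.22, adjusted p = 3.64e-06), and 1.46 (adjusted p = 3.39e-05) without the 4 livers low in pan-endothelial RNA.

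By arm the log2 fold change of Cd34 was 2.12 (adjusted p = 0.000658) against control, 1.57 (adjusted p = 0.0253) with siHAS2-LNP, 1.202 (adjusted p = 0.0397) with siLuc-LNP and 1.09 (adjusted p = 0.0569) with 4MU. Cd34 passed with siHAS2-LNP only while siHAS2-LNP mice 1 (1.40, adjusted p = 0.11) and 3 (1.48, adjusted p = 0.0955) and CCl4 + siHAS2-LNP mice 2 (1.55, adjusted p = 0.0533) and 4 (1.32, adjusted p = 0.0685) were all in the fit. With siLuc-LNP it did not pass without siLuc-LNP mice 1 (1.17, adjusted p = 0.108), 2 (1.28, adjusted p = 0.0786) or 3 (1.18, adjusted p = 0.0943), or without CCl4 + siLuc-LNP mouse 1 (0.85, adjusted p = 0.16). With 4MU it passed once 4MU mouse 2 was left out (1.78, adjusted p = 0.0106).

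Genes of other cells that can carry Cd34 were higher too. Of 7 stellate cell and fibroblast genes 5 were higher and 1 lower with CCl4 (median log2 fold change 0.68), with sums of 239 to 684 CPM against 206 to 403 CPM. All 4 mesothelial genes were higher (median 1.09), with sums of 4.42 to 37.3 CPM against 1.36 to 14.3 CPM. None of these 11 genes was at 0 throughout, and their part in the Cd34 value was not tested.

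Plvap (ENSMUSG00000034845, chr8:71948674-71964506, minus strand) and Vwf (ENSMUSG00000001930, chr6:125523737-125663642, plus strand), the clotting glycoprotein stored by venous and capillary endothelium and by megakaryocytes, did not pass. Plvap was 25.7 to 45.6 CPM (median 33.9) without CCl4 and 18.8 to 61.1 CPM (median 40.9) with it, a mean log2 fold change of 0.22 (SE 0.12, adjusted p = 0.14). It passed with CCl4 + siHAS2-LNP mouse 4 left out (0.27, adjusted p = 0.0393). Vwf was 1.54 to 8.10 CPM (median 4.66) and 1.33 to 7.01 CPM (median 3.95), a change of -0.25 (SE 0.19, adjusted p = 0.282). In the 4MU arm every liver with CCl4 (39.9 to 47.9 CPM) was above those without (29.9 to 36.6 CPM) for Plvap, and in the siHAS2-LNP arm every liver with CCl4 (1.33 to 2.88 CPM) was below those without (3.53 to 4.12 CPM) for Vwf, and neither passed. The 3 capillarization genes therefore had fitted changes of 1.49, 0.22 and -0.25, and only the first passed. Of 3 megakaryocyte and platelet genes tested 2 were lower and 0 higher with CCl4 (median -0.72), and the sums over 5 such genes, 1 of them at 0 in all livers, were 4.05 to 7.98 CPM against 3.79 to 15.8 CPM.

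The arms were compared in a single test for a difference of the CCl4 effect among them. It called 0 of the 10 markers, where 5.02% of all genes passed. An unadjusted p under 0.05 was reached by 1 marker and by 3605 of the 14114 genes tested. DESeq2 and limma-voom also called 0. The number of markers called was 3 for CCl4 against control (34% of all genes), 1 with 4MU (23.7%), 4 with siLuc-LNP (24.2%) and 2 with siHAS2-LNP (12.8%), and the difference between these numbers was not tested beyond the test above. With the 4 livers low in pan-endothelial RNA left out, a choice made after seeing the data, the numbers were 2 with siLuc-LNP, where Oit3 (0.95, adjusted p = 0.0921) and Cd34 (1.28, adjusted p = 0.0635) were lost, and 1 with siHAS2-LNP, where Cd34 was lost (1.59, adjusted p = 0.0815).

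**Figure D2:**
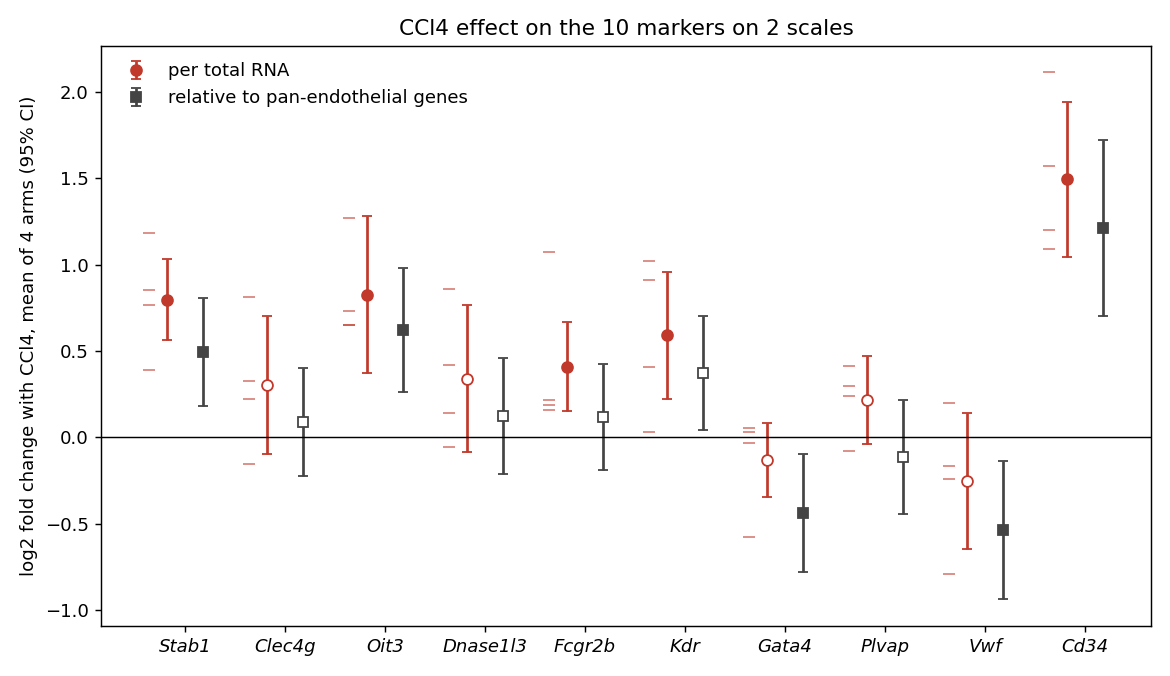
Mean log2 fold change with CCl4 over the 4 arms for each marker (vertical axis) with 95% confidence intervals. Red circles are on the TMM-normalised scale (labelled per total RNA in the figure) and grey squares are relative to pan-endothelial genes. Filled symbols passed at an adjusted p of 0.05 and small red dashes are the single arms. Stab1, Oit3 and Cd34 are filled above 0 on both scales, and Gata4 and Vwf are filled below 0 on the second scale alone.

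Of 18 pan-endothelial genes 5 passed as higher with CCl4 and 0 as lower (median log2 fold change 0.33). Among all 14114 genes 51.9% passed, 3711 of them as higher. The pan-endothelial sums overlapped almost whole, at 72.2 to 176.5 CPM (median 137.4) with CCl4 and 68.0 to 183.2 CPM (median 128.8) without. Ecscr at 0.84, Tie1, an endothelial receptor kinase, at 0.53 and Ramp2 at 0.49 were the 3 with the smallest p. Each of the 8 groups held a mouse without which Ramp2 did not pass. Without the 4 livers low in pan-endothelial RNA it did not pass either (0.31, adjusted p = 0.0833). The mean effect was also fitted with each library scaled so that the mean of the 18 genes was equal in all livers. This scale moved the median of all genes from -0.02 to -0.36 and the split of called genes from 3711 higher and 3608 lower to 1412 higher and 5767 lower, and 50.9% of all genes passed. On it 3 markers were higher, Cd34 by 1.21 (SE 0.25, adjusted p = 0.000128), Oit3 by 0.62 (SE 0.18, adjusted p = 0.00376) and Stab1 by 0.50 (SE 0.16, adjusted p = 0.00792). Gata4 at -0.44 (SE 0.17, adjusted p = 0.0282) and Vwf at -0.54 (SE 0.20, adjusted p = 0.0224) passed as lower on this scale alone. On the TMM-normalised scale they were at -0.13 and -0.25. Both moved down with the median of all genes, and whether they fell beyond that shift was not tested.

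The remaining 5 did not pass on this scale. Kdr was at 0.37 (adjusted p = 0.0543), Fcgr2b at 0.12, Dnase1l3 at 0.12, Clec4g at 0.09 and Plvap at -0.11. Kdr passed when control mouse 4 (0.41, adjusted p = 0.0413), 4MU mouse 1 (0.39, adjusted p = 0.0472), CCl4 + 4MU mouse 4 (0.40, adjusted p = 0.047), siHAS2-LNP mouse 1 (0.44, adjusted p = 0.0298), CCl4 + siHAS2-LNP mouse 3 (0.40, adjusted p = 0.0486) or siLuc-LNP mouse 3 (0.41, adjusted p = 0.0393) was left out. Gata4 no longer passed without 4MU mouse 1 (-0.39, adjusted p = 0.051), CCl4 mouse 1 (-0.39, adjusted p = 0.0888) or siLuc-LNP mouse 2 (-0.37, adjusted p = 0.0739). Vwf no longer passed without CCl4 mouse 2 (-0.52, adjusted p = 0.0592), siHAS2-LNP mouse 2 (-0.47, adjusted p = 0.0525) or siLuc-LNP mouse 2 (-0.44, adjusted p = 0.069). With the 4 livers low in pan-endothelial RNA left out together, Stab1 (0.52), Oit3 (0.47), Cd34 (1.31) and Gata4 (-0.34, adjusted p = 0.0431) still passed and Vwf did not (-0.38, adjusted p = 0.11).

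Within groups the sinusoidal markers other than Gata4 followed the pan-endothelial score from liver to liver. Over the 27 livers, each taken as its deviation from the group mean, Spearman's rho with the score was 0.85 for Clec4g, 0.83 for Dnase1l3, 0.82 for Oit3, 0.71 for Fcgr2b, 0.71 for Stab1, 0.66 for Kdr, 0.58 for Plvap, 0.39 for Vwf, 0.38 for Gata4 and -0.14 for Cd34. These values are descriptions over libraries that share normalisation and depth, and rho with the total count was 0.03 to 0.40. Gata4, Vwf and Cd34 had the lowest values of the 10.

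**Figure D3:**
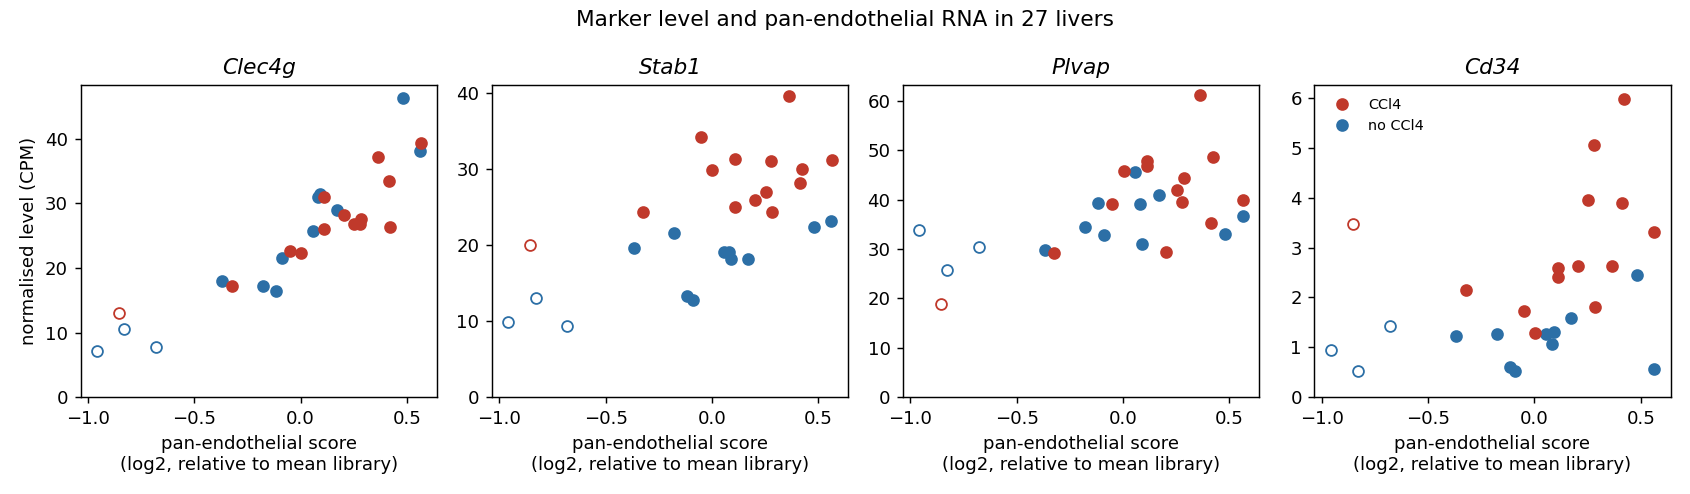
Level of Clec4g, Stab1, Plvap and Cd34 (vertical axes, CPM, starting at 0) against the pan-endothelial score (horizontal axis, log2 relative to the mean liver) in 27 livers with CCl4 (red) and without (blue), with the 4 livers below -0.5 as open circles. Clec4g climbs along the score with red and blue mixed, while for Stab1 and Cd34 most red points lie above the blue ones at like scores.

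The genes most like each marker over the 27 livers were sought by Spearman's rho, again on deviations from the group mean. For Clec4g they were Dnase1l3 (0.90), Oit3 (0.90) and Fam167b (0.87), and for Oit3 they were Clec4g (0.90), Gpr182 (0.88) and Dnase1l3 (0.85). Dnase1l3 was most like Gpr182 (0.91), an endothelial receptor, Clec4g (0.90) and the water channel gene Aqp1 (0.89). Kdr was most like Adgrl4 (0.86), Clec4g (0.85) and F8 (0.83), Fcgr2b like She (0.86), Wnt2 (0.80) and Gpr182 (0.79), and Stab1 like Ehd3 (0.88), Tmem204 (0.82) and Flt4 (0.80). Of the sinusoidal set, Clec4g, Oit3 and Dnase1l3 thus appeared in lists of other markers, while the lists of Stab1 and Fcgr2b held no marker.

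The capillarization genes had other neighbours. Cd34 was most like Svep1 (0.71), Col6a2 (0.70) and Ccdc80 (0.70), genes of matrix proteins, and on levels not centred by group it was most like Lhfpl6 (0.92), Ccdc80 (0.92) and the elastin gene Eln (0.91). Plvap was most like Ackr1 (0.84), a chemokine receptor of venules, Sod3 (0.82) and Ecm1 (0.78). Vwf was most like Tspan17 (0.76), Tek (0.74), the angiopoietin receptor, and Gm45494 (0.65). Gata4 was most like Aoah (0.78), Zc4h2 (0.73) and H2bc23 (0.69), none of them a marker here. Vwf and Plvap deviated from their group means with a rho of -0.03 between them. With the sinusoidal markers Plvap had a rho of 0.12 (Kdr) to 0.67 (Stab1).

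Among 13 other sinusoidal genes tested 5 were higher and 3 lower with CCl4 (median log2 fold change 0.16), where 51.9% of all genes passed. The same share stands beside the counts of the lists that follow. Lyve1, a hyaluronic acid receptor, rose by 1.08 (adjusted p = 0.000417), Flt4, VEGF receptor 3, by 0.84 (adjusted p = 0.000521) and Gpr182 by 0.65 (adjusted p = 0.00162). Stab2, the other stabilin and the main clearance receptor for hyaluronic acid, was lower at -0.59 (SE 0.09, adjusted p = 1.29e-05), at 25.7 ± 6.61 CPM (SD, n = 14) with CCl4 and 37.9 ± 7.09 CPM (SD, n = 13) without. Stab1 and Stab2 thus changed in opposite directions. Rspo3, a Wnt enhancer of the central vein (-0.65, adjusted p = 0.00105), and the transcription factor gene Maf (-0.30, adjusted p = 0.0322) were lower as well, though Maf did not pass when single mice were left out of most groups (adjusted p of up to 0.0968). Wnt9b was not tested, at a mean of 9.56 counts.

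Genes of veins and continuous capillaries other than the markers were also mixed, with 4 of 9 higher and 2 lower (median 0.44). In whole liver the cell source of these genes was not measured. Sparcl1 (1.06, adjusted p = 6.88e-06), Mcam (1.02, adjusted p = 8.61e-06) and Efnb2 (1.40, adjusted p = 0.000128), an ephrin of arterial endothelium, were higher, and Ly6a (-2.58, adjusted p = 9.92e-09) and Selp (-0.83, adjusted p = 0.00864), the gene of P-selectin, were lower. Apln, Aplnr, Esm1 and Edn1 were not tested, at means of 0.482 to 6.89 counts.

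Of 9 genes of VEGF and angiopoietin ligands and receptors beside Kdr, 2 were higher and 2 lower (median -0.11). The ligands Vegfa (-0.65, adjusted p = 1.22e-06) and Vegfb (-0.77, adjusted p = 2.54e-06) were lower, and Vegfc (0.30, adjusted p = 0.0118) and Angpt2 (2.02, adjusted p = 2.74e-08), which loosens vessels, were higher. Vegfc did not pass without CCl4 mouse 2 (0.25, adjusted p = 0.0532), and relative to pan-endothelial genes it was at -0.06. Pgf was not tested. Among 4 GATA and shear-responsive factor genes, Gata6 was higher (0.67, adjusted p = 7.88e-07) and Klf2, which laminar flow raises in endothelium, lower (-0.55, adjusted p = 0.000237), with a median of 0.29, and Gata1 was not tested. Relative to pan-endothelial genes Gata6 was at 0.31 and did not pass (adjusted p = 0.149). Gata4 thus did not pass where its relative Gata6 did on the TMM-normalised scale, and the difference between the 2 genes was not tested.

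All 10 basement membrane genes were higher with CCl4 (median 1.22), led by Nid1 (2.80, adjusted p = 2.1e-11), Col4a2 (1.78, adjusted p = 3.97e-11) and Col4a1 (1.76, adjusted p = 2.14e-10), which code for nidogen-1 and type IV collagen. Many liver cells are known to make them. Of the other cell type lists, 1 of 6 hepatocyte genes was higher and 3 lower (median -0.21), 1 of 4 T cell genes and 1 of 3 erythroid genes tested were lower and 0 higher (medians -0.41 and -0.32), and all 4 ductal and all 4 dividing cell genes were higher (medians 1.37 and 4.25).

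**Figure D4:**
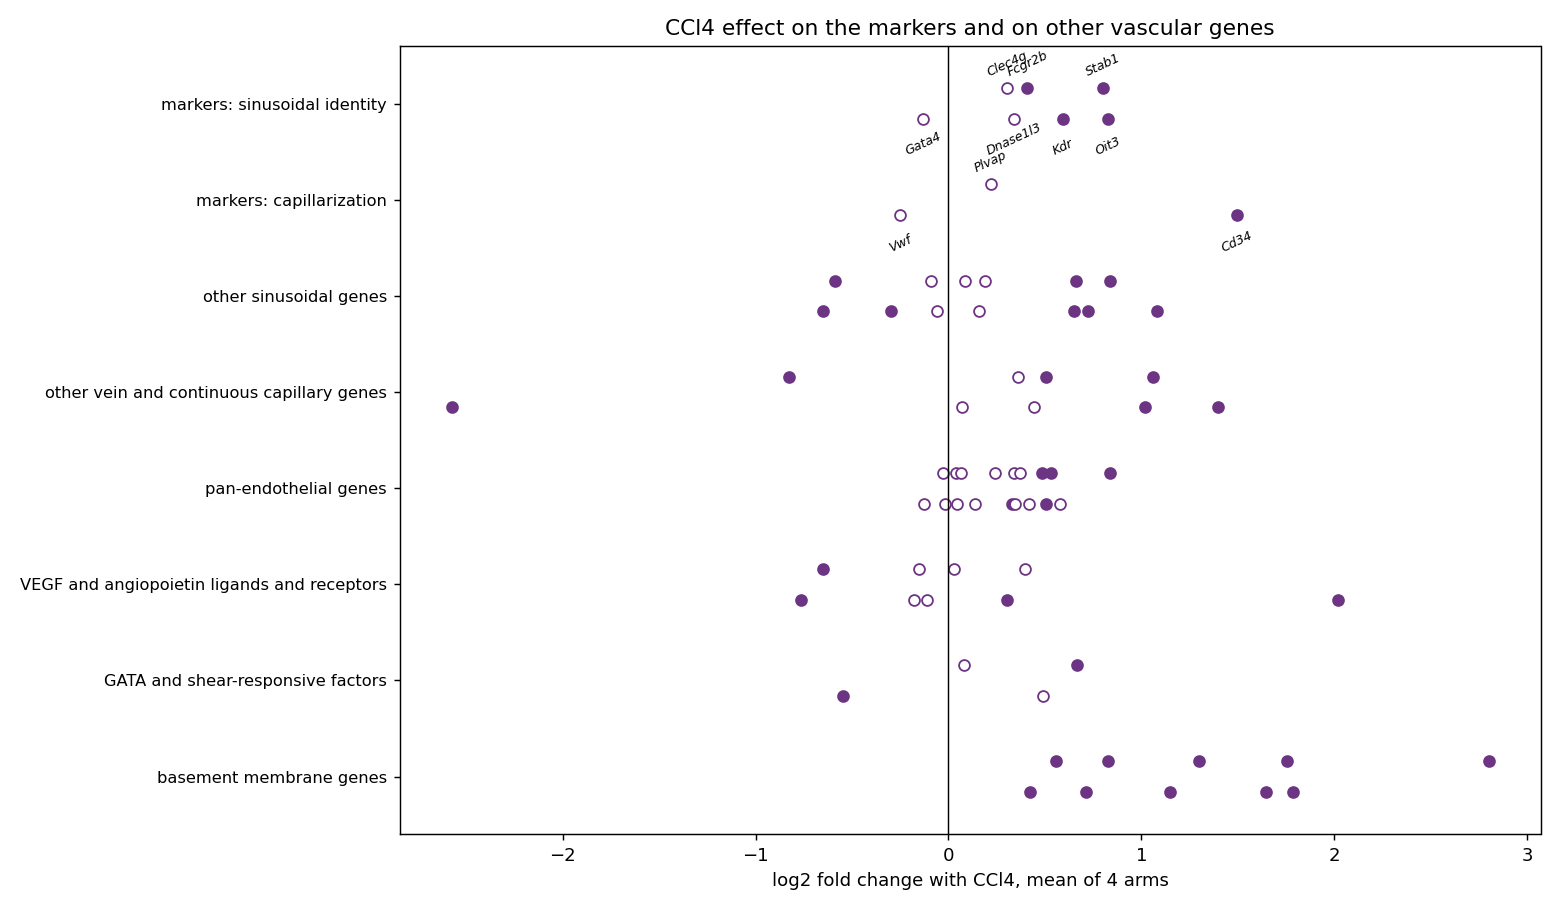
Mean log2 fold change with CCl4 over the 4 arms (horizontal axis) of the markers and of the other vascular gene lists (rows), each circle a gene, filled where it passed at an adjusted p of 0.05. The 10 basement membrane genes are all filled to the right of 0, 15 of the 18 pan-endothelial genes lie to the right of 0 with 5 of them filled, and Cd34 lies apart from Plvap and Vwf.

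The treatments were then compared among mice given CCl4. These comparisons with CCl4 alone share its 2 mice with CCl4 against control. In CCl4 + 4MU against CCl4, 0 of the 10 markers passed (18.3% of all genes did), and 5 were above 0 and 5 below. An unadjusted p under 0.05 was reached by 0 markers and by 4777 of the 14114 genes tested. In CCl4 + siLuc-LNP against CCl4 0 passed as well (0.248% of all genes), with 6 above 0 and 4 below. Here 0 markers and 2001 of all genes were at an unadjusted p under 0.05. DESeq2 and limma-voom called 0 in both.

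CCl4 + siHAS2-LNP had the lowest group mean of the 4 CCl4 groups for every marker but Gata4. Against CCl4 alone 2 of 10 passed, both lower, beside 14.4% of all genes, and 9 of the 10 values were below 0 (median -0.57, all genes 0.02). Vwf was 2.50, 2.88, 1.33 and 1.87 CPM with siHAS2-LNP and 5.89 and 5.24 CPM without, a log2 fold change of -1.36 (SE 0.42, adjusted p = 0.0301). Kdr was 12.02, 12.5, 11.2 and 10.4 CPM against 26.96 and 23.02 CPM, a change of -1.11 (SE 0.38, adjusted p = 0.0489). Neither gene overlapped between the groups, though the share of all genes without overlap here was not counted. Cd34, at 1.29, 2.15, 1.73 and 3.47 CPM against 3.89 and 5.99 CPM, changed by -1.27 (SE 0.44, adjusted p = 0.0519).

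The endothelial RNA of these livers was also lower, with pan-endothelial sums of 72.2 to 115 CPM against 149.8 and 156.5 CPM. With the libraries scaled to the pan-endothelial genes, none of the 10 passed in edgeR, and Vwf was at -0.66 (adjusted p = 0.226) and Kdr at -0.38 (adjusted p = 0.388). The calls also rested on few mice. Kdr did not pass when any of the 6 mice was left out (adjusted p of 0.0643 to 0.185), and Vwf passed only with CCl4 + siHAS2-LNP mouse 1 or 2 left out, not without CCl4 mouse 1 (-1.28, adjusted p = 0.103), CCl4 mouse 2 (-1.47, adjusted p = 0.162), or CCl4 + siHAS2-LNP mouse 3 (-1.17, adjusted p = 0.0922) or 4 (-1.32, adjusted p = 0.0592). With the 4 livers low in pan-endothelial RNA left out Vwf did not pass either (-1.35, adjusted p = 0.0674). Cd34 lay at the threshold and passed without CCl4 + siHAS2-LNP mouse 4 (-1.53, adjusted p = 0.0314), without the 4 low livers (-1.56, adjusted p = 0.0312) and with DESeq2 (-1.29, adjusted p = 0.034). It also passed in edgeR with other size factors (adjusted p = 0.0485), without a filter (adjusted p = 0.0139), with filterByExpr (adjusted p = 0.0472) and in a fit of these groups alone (adjusted p = 0.0446).

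Against CCl4 + siLuc-LNP, the particle control, 0 of 10 markers passed (1.09% of all genes did), also with DESeq2 and limma-voom. All 10 values were below 0 (median -0.61, all genes 0.004). An unadjusted p under 0.05 was reached by 2349 of the 14114 genes tested and by 4 of the 10 markers. Of these Oit3 was at -0.95 (adjusted p = 0.216), Vwf at -0.91 (adjusted p = 0.189), Kdr at -0.69 (adjusted p = 0.278) and Fcgr2b at -0.49 (adjusted p = 0.271) by edgeR. For Oit3 the 4 livers with siHAS2-LNP, at 6.62, 5.42, 5.78 and 4.54 CPM, were below the 4 with siLuc-LNP, at 9.84, 10.99, 13.5 and 9.53 CPM, and Kdr, Vwf, Fcgr2b, Clec4g and Dnase1l3 were lower without overlap as well. This made 6 of the 10 markers, beside 3.52% of all genes. The pan-endothelial sums were 72.2 to 115 CPM against 135 to 162 CPM, and their part in these values was not tested.

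In mice without CCl4 the treatments called 0 of the 10 markers in each comparison by edgeR, and 0 by DESeq2 and limma-voom. 4MU against control (0.00709% of all genes passed) had 9 values above 0 and 1 marker with an unadjusted p under 0.05, Gata4 at 0.62 (adjusted p = 0.401). siLuc-LNP against control (0.213%) had 7 below 0 and likewise 1, Fcgr2b at -0.81 (adjusted p = 0.349). siHAS2-LNP against siLuc-LNP (0.0425%) had 9 below 0 and 0 with an unadjusted p under 0.05. Among all 14114 genes tested the unadjusted p was under 0.05 for 966, 960 and 1262 in these comparisons, in that order.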

How the data were processed

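The members and the gene lists were chosen with earlier results of these data known. The authors read poly-A RNA of whole liver as paired ends of at least 85 bases from a strand-marking library, trimmed the reads with Trimmomatic 0.39, aligned them to GRCm39 with HISAT2 and counted them per gene with featureCounts on Ensembl release 105. Reads that mapped to several places were left out, and the strand setting of the counting was not given in the sources used here, so reads from antisense genes may be included. The deposited values are raw whole-number counts of 55414 genes in 27 mice. Each library is 1 mouse, and p-values measure the spread between these mice.

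The 14114 genes whose mean over mice reached 10 counts were tested with edgeR 4.0.16 (TMM, quasi-likelihood, all 8 groups in 1 fit, Benjamini-Hochberg) in R 4.3.3, with DESeq2 1.42.0 and limma-voom (limma 3.58.1) as alternatives. All 3 fits were run on simulated counts with known changes, for the mean effect and the siLuc-LNP arm, and the outcome is not reported here. The test of a difference among arms was not simulated. CPM are TMM-normalised, and log2 CPM used a prior count of 2. The relative scale shifted each library by the mean log2 CPM of 18 pan-endothelial genes. Of the IDs, 54749 matched the GENCODE annotation that gave positions and exon lengths. Other alternatives were each mouse left out, a block on replicate number, size factors of DESeq2, fits limited to the groups being compared, filterByExpr or no filter, a plain contrast of all mice with CCl4 and all without, and smaller pan-endothelial scales. All 10 members are named, and of each other vascular list the 3 called genes with the smallest p in each direction. Members were compared with all genes by Spearman's rho, and the 3 highest are named. Floors and intervals of counts cover counting error only. Replicates of a group differed beyond sampling noise in all 34 pairs (chi-square per degree of freedom of 15.28 or more).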

Additional observations from a re-analysis of the deposited data

Results flagged for a closer look

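Of 40 groups of 4 mice tested across the 10 markers, 4 held a liver far from the other 3 by Dixon's 95% critical value for its gap, and chance alone gives about 1 in 20. Control mouse 2, which is low in pan-endothelial RNA, was low for Stab1 (13.05 CPM, the others 18.15 to 19.08 CPM) and for Clec4g (10.51 CPM, the others 28.95 to 31.48 CPM). CCl4 + siLuc-LNP mouse 3 was high for Clec4g (37.22 CPM, the others 26.76 to 28.14 CPM), and CCl4 + siLuc-LNP mouse 4 was high for Kdr (23.36 CPM, the others 16.61 to 17.51 CPM).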

How the results depend on the processing

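Of 1173 values of single markers under an alternative, 1068 kept their direction and side of the threshold, 55 lost a call, 31 gained one and 19 changed sign. The 805 values of the 23 other named genes kept their direction, and 24 lost their call. The mean CCl4 effect called 4 to 7 of 10 markers under every alternative. The number of markers called moved by over 1.5 times in the following cases, and the cause was not tested. DESeq2 and limma-voom each gave 2 in the 4MU arm, and limma-voom gave 0 for CCl4 + siHAS2-LNP against CCl4. Without a filter on low counts the number was 7 in the siLuc-LNP arm, 4 for CCl4 + siHAS2-LNP against CCl4 + siLuc-LNP, 1 for siLuc-LNP against control and 1 for the difference among arms (Fcgr2b in both). Smaller moves are left out, such as 3 for CCl4 + siHAS2-LNP against CCl4 with DESeq2, where Cd34 was added, and 5 in the siLuc-LNP arm with DESeq2, where Kdr was added (adjusted p = 0.0338). In fits limited to the groups being compared it was 2 in the siLuc-LNP arm. With the 4 livers low in pan-endothelial RNA left out it was 2 in the siLuc-LNP arm and 1 in the siHAS2-LNP arm, and scaled to pan-endothelial genes it was 0 for CCl4 + siHAS2-LNP against CCl4 (both chosen after seeing the data). Leaving out single mice gave 1 to 3 in CCl4 against control, 0 to 1 in the 4MU arm, 2 to 6 in the siLuc-LNP arm, 1 to 2 in the siHAS2-LNP arm, 0 to 1 for CCl4 + siHAS2-LNP against CCl4 and 3 to 6 on the relative scale.

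Over all genes and all groups pooled, the replicate numbers showed no general pairing of the mice. A pairing limited to a few groups could be missed by this summary. Deviations from the group means correlated with a median of -0.017 over 83 same-numbered pairs, 17 of them over 0.1. Over 234 pairs of different number the median was -0.012, with 60 over 0.1, and 4 of 27 livers correlated best with a liver of their own number. Of the 4 livers low in pan-endothelial RNA, those of the control, siLuc-LNP and siHAS2-LNP groups all carry number 2. Whether these livers share a batch was not tested. With the replicate block 0 markers were called in the 4MU arm and 1 for CCl4 + siHAS2-LNP against CCl4, Cd34 was lost in the siLuc-LNP arm (1.18, adjusted p = 0.0682), Plvap passed in the mean effect (0.29, adjusted p = 0.0335), Maf was lost there (-0.29, adjusted p = 0.0596), Kdr in the 4MU arm was at -0.021 and Gata4 in the siLuc-LNP arm at 0.036.

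Values near 0 changed sign. Without the 4 low livers Gata4 was at -0.025 against control, 0.013 with siLuc-LNP and -0.12 with siHAS2-LNP, and relative to pan-endothelial genes Clec4g was at -0.041, Dnase1l3 at -0.0066 and Plvap at 0.025. Leaving out single mice gave -0.16 to 0.23 for Gata4 in CCl4 against control, -0.15 to 0.062 with siLuc-LNP and -0.10 to 0.17 with siHAS2-LNP, -0.16 to 0.22 for Kdr with 4MU and -0.10 to 0.54 for Fcgr2b with siHAS2-LNP.

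CCl4 alone rests on 2 mice, so a liver left out there leaves a lone sample whose spread is assumed to be like that of the other groups. Cd34 had 9 to 159 counts per liver and Vwf 14 to 177, which limits both.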
